A study of Homo sapiens with 6 samples.

Results

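MicroRNA genes made up a small share of the promoters bound by N-Myc in the neuroblastoma cell line CHP-134. N-Myc, the transcription factor encoded by MYCN, and JMJD6, a jumonji domain protein, were each mapped by chromatin immunoprecipitation followed by sequencing (ChIP-Seq). The 6 samples were 3 replicates with an N-Myc antibody, cross-linked with formaldehyde alone, and 3 replicates with a JMJD6 antibody, cross-linked with DSG and then formaldehyde. Both groups were the same cell line, so differences between the lists of the proteins cannot be told apart from differences between the cross-linking protocols. The labels name no genetic change or drug in either group, and do not say whether the replicates came from separate cultures. The lists give positions of peaks found in all 3 replicates, with no height, score or read count. The depth behind a peak is therefore unknown, and no spread between replicates or value per sample can be given.

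A promoter was counted here when its listed gene symbol was MIR followed by a digit, began with MIRLET, or was MIR17HG, so membership itself is a readout of the binding and is given as a description. In all, 76 of the 5207 promoters in either list met this rule. They carried 75 symbols and lay at 72 distinct places, because some near-identical genes were listed at the same coordinates. The N-Myc list held 75 of them among 5114 promoters, and the JMJD6 list held 3 among 177. Of the members, 69 were single hairpins and 7 were starts of host genes, which are longer transcripts named for the microRNA they carry. No row was named MIR17HG. The common N-Myc peaks that overlapped these promoters numbered 73, of 10172 common N-Myc peaks in all, and the common JMJD6 peaks numbered 3, of 561.

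A microRNA is cut from a hairpin in a longer primary transcript, first by the nuclear enzyme DROSHA with DGCR8 and then by DICER1 in the cytoplasm. The mature strand guides an Argonaute protein to messenger RNAs through a short stretch near its 5′ end, the seed. Myc proteins bind the E-box sequence CACGTG together with MAX, and are known to act on several microRNA genes in neuroblastoma and other cancers. The start site that the gene table gives for a single hairpin is the 5′ end of the hairpin, not the start of transcription, which can lie far upstream or be that of a surrounding gene. For most members the listed promoter is therefore a window of 1 kb on each side of a hairpin.

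The mature sequences below are those of the members that the results turn on, taken from RefSeq (GRCh38.p14) and written 5′ to 3′ with the seed, bases 2 to 8, in capitals. Of the 69 hairpin symbols, 57 had a mature sequence in that table. Shown are conserved members with a known family, JMJD6-listed members with a sequence there, and members that share a seed or a place. MIR3913-1 and MIR3913-2, which also share a seed, are left out.
hsa-let-7i-5p: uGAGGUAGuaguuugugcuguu
hsa-miR-92b-3p: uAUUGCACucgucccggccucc
hsa-miR-301b-3p: cAGUGCAAugauauugucaaagc
hsa-miR-183-5p: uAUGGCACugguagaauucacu
hsa-miR-96-5p: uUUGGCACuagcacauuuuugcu
hsa-miR-4442: gCCGGACAagagggagg
hsa-miR-4738-3p: uGAAACUGgagcgccuggagga
hsa-miR-4453: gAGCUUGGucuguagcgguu
hsa-miR-4538: gAGCUUGGaugagcugggcuga
hsa-miR-1244: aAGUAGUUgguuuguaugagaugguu
hsa-miR-4444: cUCGAGUUggaagaggcg

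The let-7i seed was carried by 11 mature human sequences in the table, and the seeds of miR-92b-3p and miR-301b-3p by 6 each. Most members were not of this kind: of their 74 mature names, 54 had a seed that no other entry carried. Over the whole table this held for 1610 of 2370 mature names. The only pair of members listed at different loci that shared a seed was MIR4453 on chromosome 4 and MIR4538, and no further mature sequence in the table had it. MIR4538 was listed on chromosome 17, but RefSeq places it on chromosome 14 and its hairpin had no exact match in GRCh37, so its listed place could not be checked by sequence. The other shared seeds belonged to copies of one microRNA, MIR1244, MIR3913 and MIR4444.

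The next sequences are E-boxes found within common N-Myc peaks at members, with 20 bases on each side. They are read from GRCh37, the build of the lists (hg19), along the strand of the microRNA gene, and the capitals mark CACGTG. They show the sites at the let-7 and miR-92 genes, MIR181A2HG and MIR1244, and at the members with at least 3 over their peaks.
MIRLET7I, chr12:62996550-62996595, plus strand: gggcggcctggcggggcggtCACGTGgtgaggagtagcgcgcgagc
MIRLET7BHG, chr22:46480547-46480592, plus strand: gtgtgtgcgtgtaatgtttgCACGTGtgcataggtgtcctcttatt
MIR92B, chr1:155164200-155164245, plus strand: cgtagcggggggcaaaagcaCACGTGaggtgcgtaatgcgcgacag
MIR92B, chr1:155164285-155164330, plus strand: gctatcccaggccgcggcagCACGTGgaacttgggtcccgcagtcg
MIR181A2HG, chr9:127421133-127421178, plus strand: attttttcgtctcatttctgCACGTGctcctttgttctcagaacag
MIR1244-1, chr2:232578694-232578739, plus strand: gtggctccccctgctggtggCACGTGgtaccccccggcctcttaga
MIR3193, chr20:30195499-30195544, plus strand: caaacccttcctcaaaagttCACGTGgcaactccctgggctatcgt
MIR3193, chr20:30196107-30196152, plus strand: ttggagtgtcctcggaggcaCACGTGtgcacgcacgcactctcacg
MIR3193, chr20:30196129-30196174, plus strand: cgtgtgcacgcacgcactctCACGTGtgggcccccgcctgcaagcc
MIR4739, chr17:77680237-77680282, minus strand: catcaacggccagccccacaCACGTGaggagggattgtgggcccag
MIR4739, chr17:77680296-77680341, minus strand: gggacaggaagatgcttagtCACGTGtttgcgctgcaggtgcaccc
MIR4739, chr17:77680493-77680538, minus strand: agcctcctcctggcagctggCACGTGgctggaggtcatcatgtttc
MIR4739, chr17:77681044-77681089, minus strand: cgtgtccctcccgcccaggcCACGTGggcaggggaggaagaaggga

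In the JMJD6 list, 3 members were found. MIR4738 and MIR6723 were listed for both proteins, and MIR4442 was listed for JMJD6 and had no common N-Myc peak in its window. Over the whole series, 1.64% of the N-Myc-listed promoters (84 of 5114) were also in the JMJD6 list. At members, 2 of 73 N-Myc peaks overlapped a common JMJD6 peak (2.74%, exact 95% interval 0.334% to 9.55%), and at the other promoters 47 of 3477 did (1.35%, interval 0.995% to 1.79%). The intervals overlap and the member share rests on few peaks, and a difference from other promoters was not tested.

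At MIR4738 on chromosome 17, the peaks of both proteins had the same coordinates, 338 bp wide at chr17:73780553-73780890, and covered the hairpin's 5′ end. Their midpoint was 34 bp upstream of it and the peak lay on a start site of UNK, a zinc finger RNA-binding protein. The hairpin itself began in an exon of H3-3B on the same strand. A second N-Myc peak of 560 bp, with its midpoint 729 bp upstream, lay on a start site of H3-3B and had no JMJD6 counterpart. No CACGTG was found in either. At MIR4442 on chromosome 3, a JMJD6 peak of 400 bp at chr3:25706336-25706735 covered the hairpin's 5′ end and a start site of TOP2B, which encodes DNA topoisomerase II beta. At MIR6723 on chromosome 1, 1 peak of 325 bp at chr1:567419-567743 was common to both proteins. It lay in a stretch of nuclear copies of mitochondrial genes, 394 bp from the start of the pseudogene MTCO2P12 and within 1 Mb of an assembly gap. Only 47.0% of its 75-base words occurred once in the genome, whereas 65 of the 73 member peaks for N-Myc had all of their words unique. Whether reads from other copies contributed to this peak was not tested.

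**Figure D1:**
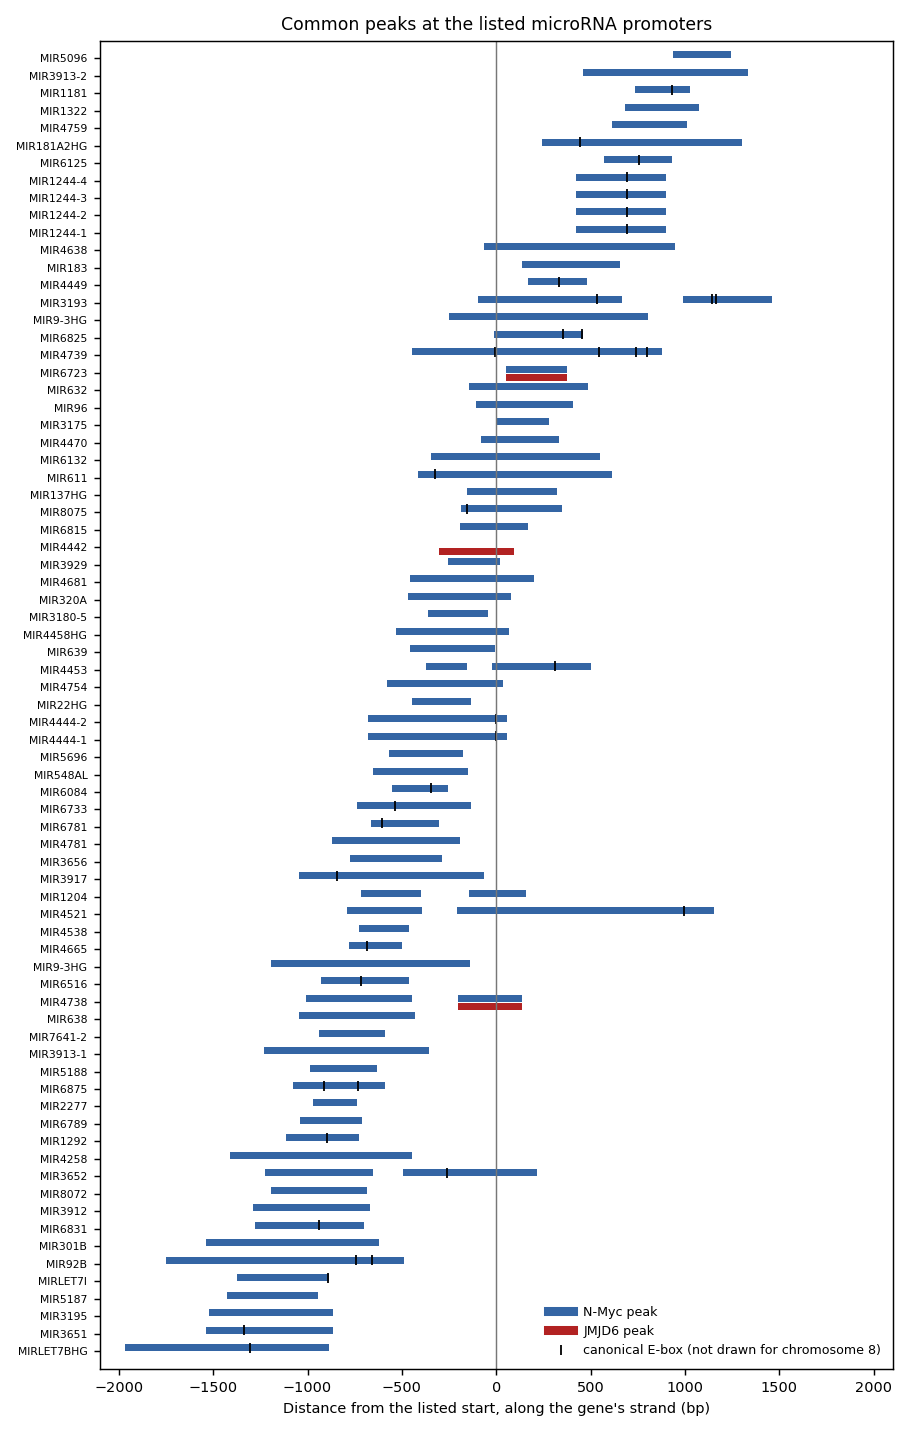
Common peaks at each listed microRNA promoter, drawn to scale along the strand of the gene, with the listed start at 0 (x axis, bp). Blue bars are N-Myc peaks, red bars are JMJD6 peaks and black ticks are CACGTG matches (E-boxes on chromosome 8 are not drawn). MIR1915, which had no common peak in its window, has no line. The peaks of most members lie to one side of the start, and 3 members have a red bar.

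The map of peaks around each start shows that the binding was often beside the hairpin and not on it. Of the 67 hairpins in the N-Myc list with a common peak, a peak covered the 5′ end of 23 (34.3%, exact 95% interval 23.2% to 46.9%). For the other listed promoters the peak covered the listed start in 2637 of 4909 (53.7%, interval 52.3% to 55.1%). The midpoint of the nearest peak lay a median of 530 bp from the hairpin's 5′ end (range 7 to 1202 bp, n = 67), against 220 bp at the other promoters (n = 4909). Measured to the nearest edge of the peak, the medians were 256 and 0 bp. The 7 host gene starts had a median of 290 bp. The share with the midpoint upstream was 59.7% for hairpins and 59.3% for the other promoters, so the side did not separate them. The intervals cover counting error only, and neighbouring promoters that share a peak are not independent.

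**Figure D2:**
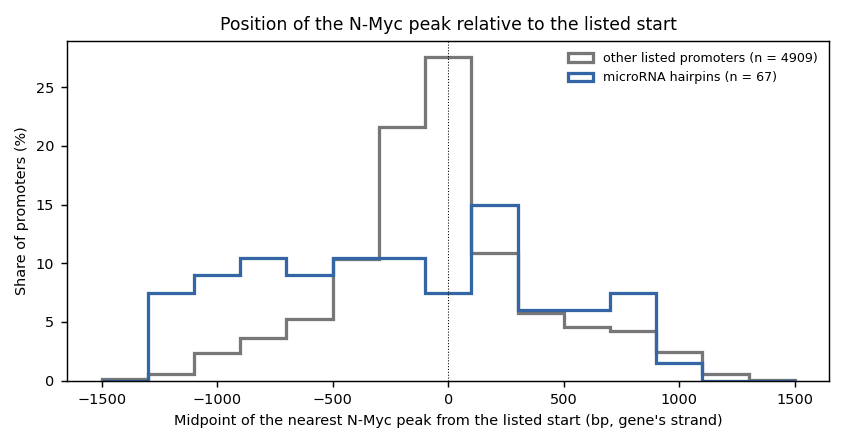
Midpoint of the nearest common N-Myc peak relative to the listed start (x axis, bp along the gene's strand, in bins of 200 bp) as a share of promoters (y axis, %), for microRNA hairpins (blue) and the other listed promoters (grey). The grey line has its maximum at the start, and the blue line is spread over the window, with medians of 530 and 220 bp from the start.

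Among conserved microRNAs, the let-7 family was represented by MIRLET7I and the host gene MIRLET7BHG. let-7 microRNAs are known to promote differentiation, and their processing is blocked by LIN28 proteins. At MIRLET7I on chromosome 12, a peak of 487 bp had its midpoint 1132 bp upstream of the hairpin and lay on the start of the lncRNA MIRLET7IHG. Its single CACGTG was 892 bp upstream of the hairpin, near the edge of the peak. At MIRLET7BHG on chromosome 22, a peak of 1080 bp had its midpoint 1428 bp upstream of the listed start and lay 98 bp from another annotated start of the same gene. This peak held 1 CACGTG and 3 CACGCG, a noncanonical E-box.

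The remaining let-7 genes had no common N-Myc peak within 1 kb. MIRLET7A3 and MIRLET7B, the hairpins of MIRLET7BHG, had the nearest peaks at 9.64 and 8.76 kb. MIRLET7G had one at 27.3 kb, and for MIRLET7A1, MIRLET7D and MIRLET7F1, which are clustered on chromosome 9, the nearest peak was 80.3 to 83.2 kb away. Hence 2 of the 13 let-7 genes looked up were listed, with a median distance of 82.8 kb to a peak over all 13. The nearest JMJD6 peak to any of them was 1013 kb away, from MIRLET7E.

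All 13 genes looked up of the miR-17 to miR-92 cluster and its paralogues, known Myc-induced growth-promoting microRNAs, had a common N-Myc peak within 10 kb. They shared 4 distinct peaks, so the genes are not separate observations, and 10.8% of all annotated microRNA genes had a peak within this distance. Only MIR92B was in the N-Myc list. Its peak was 1262 bp wide, with its edge 490 bp from the hairpin, and its pair of E-boxes lay 744 and 659 bp upstream. MIR17HG, the host gene of the cluster on chromosome 13, had a peak of 466 bp that covered an annotated start, although no row of that name was in the list. The 6 hairpins of that cluster lay 1.08 to 1.79 kb downstream of the same peak, outside the window. MIR106B, MIR93 and MIR25 lay 6.37 to 6.80 kb from a peak of 229 bp on the start of MCM7, the gene whose intron holds them and which encodes a replicative helicase subunit. MIR106A and MIR363 on chromosome X lay 1.33 and 2.15 kb from a peak of 394 bp with 1 CACGTG. No CACGTG was present in the MIR17HG and MCM7 peaks.

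MIR183 and MIR96 on chromosome 7, microRNAs of sensory neurons that are made from one transcript, shared 1 peak of 517 bp. Its midpoint was 395 bp downstream of the 5′ end of MIR183 and 150 bp downstream of that of MIR96. The nearest annotated start was 5159 bp away and belonged to a lncRNA that contains both hairpins. The peak held 7 E-boxes of the general form CANNTG and no CACGTG. MIR301B on chromosome 22 had a peak of 919 bp, 1079 bp upstream, on the start of the lncRNA around it. MIR1204 on chromosome 8, in an exon of the lncRNA PVT1 next to MYC, had peaks of 318 and 299 bp. The first held 1 CACGTG, and the second covered the hairpin's 5′ end.

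Host genes of neural and of other microRNAs were also listed. MIR9-3HG appeared with 2 starts that shared a peak of 1053 bp, and the miR-9 hairpin in it lay 5.64 kb from that peak. miR-9 is a regulator of neural progenitors. MIR137HG had a peak of 478 bp that covered its listed start, and the hairpin of miR-137, a neuronal microRNA, lay 3.20 kb away. MIR181A2HG had a peak of 1059 bp with 1 CACGTG, 442 bp downstream of the start. MIR22HG had a peak of 314 bp without CACGTG on the divergent start of WDR81, and MIR4458HG had a peak of 599 bp with 2 CACGCG. Other neural microRNAs had no peak within 1 kb: MIR124-3 had one at 4.86 kb, MIR7-1 at 9.64 kb on the start of HNRNPK, and MIR9-2 at 17.7 kb on the start of LINC00461. The nearest peaks to MIR132 and MIR212 were at 19.8 and 20.1 kb, and MIR128-1 and MIR128-2 had theirs at 75.9 and 180 kb. MIR219A1 had one at 6.91 kb, MIR9-1 at 36.8 kb and MIR153-1 at 40.4 kb. For MIR153-2 and MIR124-2 the distances were 141 and 291 kb. Of the 16 neural genes placed, 2 were in the list, the host genes MIR9-3HG and MIR137HG. Within 10 kb, 7 of the 16 had a peak, from 5 distinct peaks, and 10.8% of all annotated microRNA genes did.

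MIR34A, MIR34B and MIR34C, known as p53-induced tumour suppressors, and MIR449A, looked up with them, had no peak near them. The distances were 273 kb for MIR34A, 248 and 247 kb for MIR34B and MIR34C, and 55.7 kb for MIR449A. MIR21 and MIR210 had their nearest peaks at 51.5 and 39.0 kb. MIR15A and MIR16-1 lay 32.5 and 32.7 kb from a peak of 1218 bp on the start of DLEU1. MIR141 and MIR200C, epithelial microRNAs on chromosome 12, lay 0.972 and 1.37 kb from a single peak of 380 bp, and neither was in the list.

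**Figure D3:**
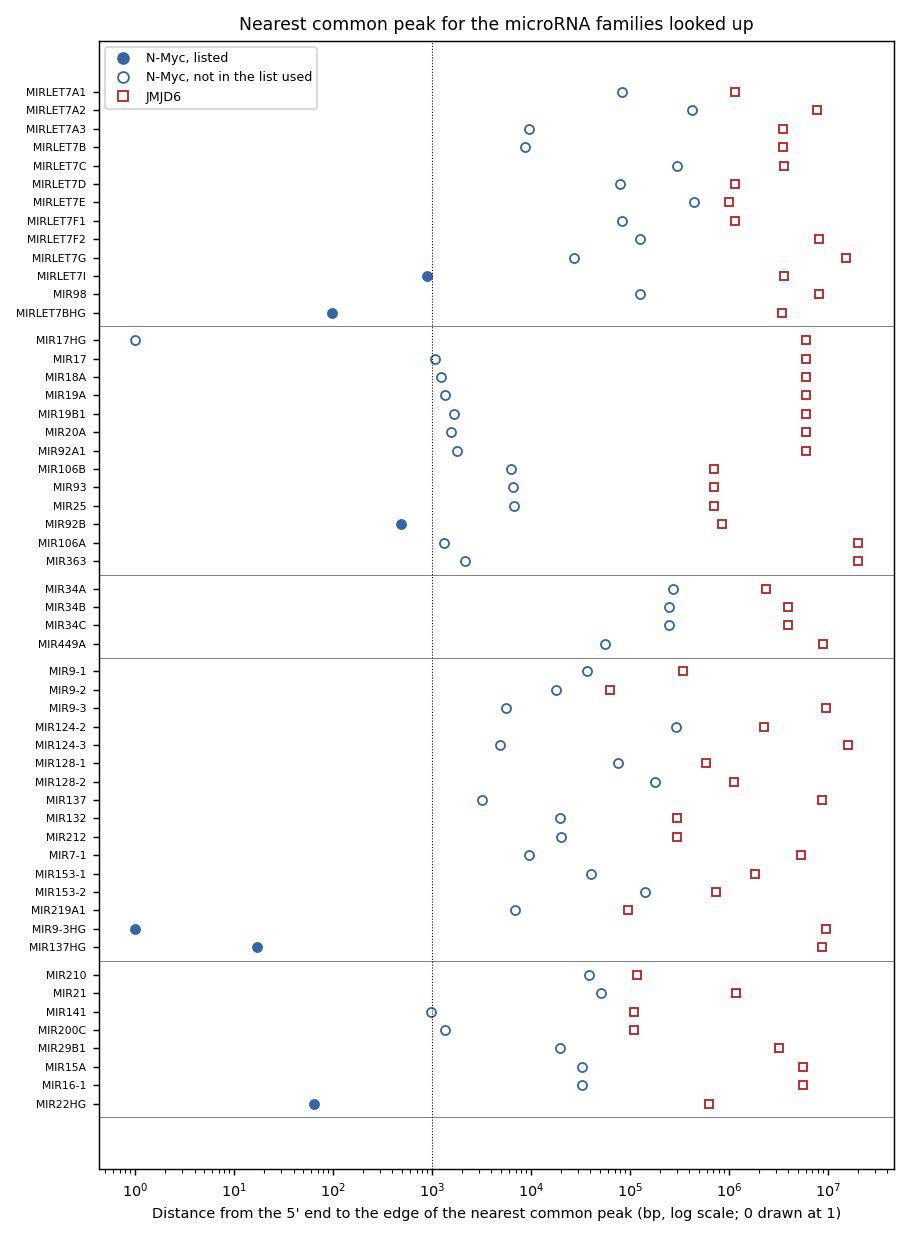
Distance from the 5′ end of each looked-up microRNA or host gene to the edge of the nearest common N-Myc peak (blue circles, filled when the gene is in the N-Myc list) and JMJD6 peak (red squares). The x axis is in bp on a log scale, with distances of 0 drawn at 1, and the dotted line marks 1 kb. The 13 genes of the miR-17 to miR-92 group lie below 10 kb for N-Myc, whereas let-7 genes other than MIRLET7I and MIRLET7BHG range from 8.76 to 446 kb, and miR-34 genes from 55.7 to 273 kb.

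Many of the other hairpins lay by the start of a larger gene. Of the 67 distinct N-Myc peaks at hairpins, 55 were within 1 kb of an annotated start of another gene (82.1%, exact 95% interval 70.8% to 90.4%), and 45 were within 1 kb of a protein-coding start (67.2%). Among the peaks at other promoters, which were listed for such a start, these shares were 99.5% and 93.9%. In 44 of 67 hairpin promoters with a peak (65.7%, interval 53.1% to 76.9%), the same peak also overlapped the listed promoter of another gene. Among the other listed promoters with a peak this held for 38.4% (interval 37% to 39.8%). Of the 73 pairs of hairpin and peak, 47 had the midpoint nearer to the other gene's start than to the hairpin (64.4%, interval 52.3% to 75.3%). The 69 hairpins began in an exon of a gene on the same strand in 29 cases and in an intron in 21, were antisense to a gene in 6 and intergenic in 13. Symbols listed at the same place, those of MIR1244 and MIR4444, were each counted. No share over all annotated microRNA hairpins is given for comparison. Of the 50 in sense, 37 were in a protein-coding gene. For such members, binding at the hairpin and binding at the other gene's promoter cannot be told apart.

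The members named next as examples were picked after their values were seen and are ordered by the known role of the larger gene. MIR3912 lay beside NPM1, which encodes nucleophosmin, and its peak of 616 bp held 4 CACGCG and no CACGTG. MIR1292 lay in NOP56, a core protein of box C/D snoRNPs, with a peak of 386 bp and 1 CACGTG 897 bp upstream of the hairpin. MIR3656 lay in TRAPPC4 and its peak of 486 bp was on the start of RPS25. MIR6733 lay in EBNA1BP2, a ribosome biogenesis gene, with a peak of 607 bp. MIR3913-1 and MIR3913-2, on opposite strands at one place, shared a peak of 873 bp on the start of the chaperonin gene CCT2. MIR3652 lay in HSP90B1, an endoplasmic reticulum chaperone gene, with peaks of 575 and 708 bp, and MIR639 lay in TECR, with a peak of 453 bp on the start of DNAJB1, a heat shock co-chaperone gene.

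MIR4258 lay in CKS1B, a cyclin-dependent kinase subunit gene, with a peak of 963 bp. MIR3917 lay in STMN1, which encodes the microtubule regulator stathmin, with a peak of 983 bp and 1 CACGTG. MIR611 had a peak of 1028 bp on the start of TMEM258 that also overlapped the listed promoter of FEN1, a flap endonuclease gene. MIR4453 had peaks of 218 and 524 bp at FBXW7, a ubiquitin ligase subunit whose known targets include Myc proteins. The second of these peaks held 1 CACGTG, 310 bp downstream of the hairpin's 5′ end. MIR6781 lay in the autophagy gene BECN1, with a peak of 359 bp on the start of PSME3, and MIR6084 lay in the mitochondrial kinase gene PINK1, with a peak of 299 bp.

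A smaller set had no annotated start within 1 kb of the peak, 12 of the 67 distinct peaks at hairpins. At MIR1244, a peak of 480 bp lay 2602 bp from the nearest start, that of PTMA (prothymosin alpha), within whose exon the hairpin begins. At MIR3193 on chromosome 20, peaks of 763 and 474 bp lay 1800 and 2883 bp from the start of ID1, which encodes an inhibitor of helix-loop-helix factors. The second peak, at the edge of the window, held 2 CACGTG. MIR4681, in an intron of GRK5, had a peak of 655 bp that lay 41334 bp from the nearest start. MIR3929 had a peak of 275 bp that lay 31444 bp away, and MIR8075, in CUL4A, a peak of 536 bp that lay 13349 bp away. Of the 75-base words in the MIR8075 peak, 48.7% were unique. MIR6815, in COL18A1, had a peak of 356 bp at 11845 bp, MIR4759 one of 399 bp at 10604 bp, MIR5096 one of 311 bp at 5900 bp and MIR1322 one of 392 bp at 1410 bp. The first of the MIR4521 peaks, 401 bp wide, was 2382 bp away, and the peak of MIR183 and MIR96 was the remaining one.

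Some listings were repeats of a single place. MIR1244-1, MIR1244-2, MIR1244-3 and MIR1244-4 were all listed at the same window on chromosome 2, and their hairpin sequence matched GRCh37 at 4 places. The other places, on chromosomes 5 and 12, lay 44.2 to 2030 kb from a common N-Myc peak. MIR4444-1 and MIR4444-2 shared a window in HNRNPA3 on chromosome 2, with a peak of 735 bp that covered the hairpin's 5′ end, while the second match, on chromosome 3, lay 79.6 kb from a peak. MIR1915 on chromosome 10 was in the list without a common peak in its window, and the nearest one was 28671 bp away. Of the other N-Myc-listed promoters, 4909 of 5039 (97.4%) had a common peak in theirs.

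The canonical E-box was found in 31 of the 73 member peaks (42.5%, exact 95% interval 31.0% to 54.6%). In the 3477 peaks at other promoters the share was 36.8% (1278 peaks), and it lay within that interval. In windows of the same width 5 kb beyond the member peaks, 7 of 72 held CACGTG (9.72%, interval 4.0% to 19%), which does not overlap the interval of the peaks. These windows were matched to the peaks for width only, and the role of base composition was not tested. The variant with CACGCG was held by 2.78% of the windows, that with CATGCG by 5.56%, and the longer form with CAACGTG by 2.78%. In the member peaks these shares were 31.5%, 16.4% and 5.48%. The variant with CATGTG was held by 26.4% of the windows and 24.7% of the member peaks. For the general form CANNTG the shares were 90.3% and 83.6%. CACGCG was found in 23 member peaks (31.5%) and in 29.2% of the other promoter peaks. Both strands were searched, the letters of CACGTG read the same on each, and overlaps between motifs were not removed. A match describes the sequence only. At least 2 CACGTG were held by 5 member peaks (6.85%, interval 2.26% to 15.3%), and at the other promoters 6.59% did.

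MIR4739 on chromosome 17 was the member with at least 3 in 1 peak. Its peak of 1322 bp, on the start of LINC02078, held 4 CACGTG in the reference, 1 of them 9 bp upstream of the hairpin's 5′ end and the others 542, 739 and 798 bp downstream. The others with 2 were MIR92B, MIR6825 in TPRA1, MIR6875 in TRIP6 and the second peak of MIR3193. No match to CANNTG was found in 12 member peaks (16.4%), against 12.8% of the other promoter peaks. Of these 12, 5 held CACGCG, which CANNTG does not cover, and the 2 peaks shared with JMJD6 were among the 12.

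**Figure D4:**
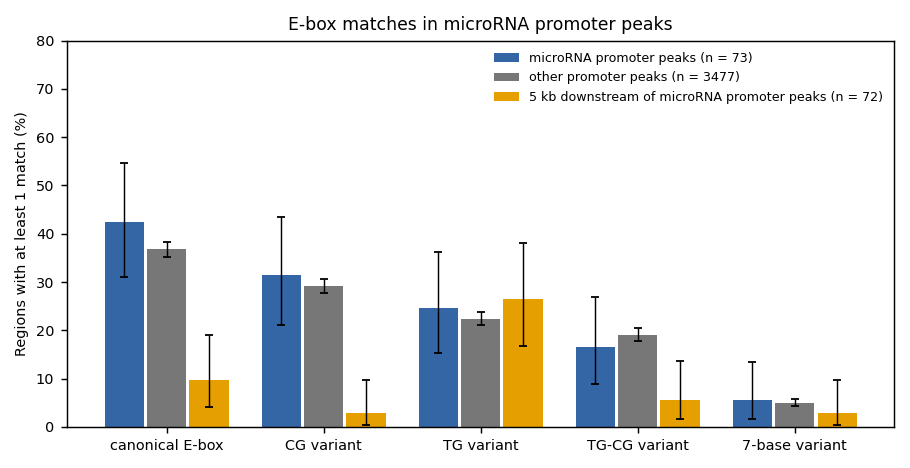
Share of regions with at least 1 E-box match (y axis, %), for the microRNA promoter peaks, the other promoter peaks and windows of the same width 5 kb beyond the microRNA promoter peaks. From left to right the motifs are the canonical E-box, its variant with CACGCG, that with CATGTG, that with CATGCG, and the longer form with CAACGTG. Error bars are exact 95% intervals. For the canonical E-box the bars stand at 42.5%, 36.8% and 9.72%.

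Median peak width was 486 bp at microRNA promoters (range 218 to 1358 bp, n = 73) and 451 bp at other promoters (range 189 to 2162 bp, n = 3477). The widest were at MIR4521 (1358 bp), MIR4739 (1322 bp), MIR92B (1262 bp), MIRLET7BHG (1080 bp) and MIR181A2HG (1059 bp). The narrowest were at MIR4453 (218 bp), MIR2277 (235 bp), MIR4538 (268 bp) and MIR3929 (275 bp), followed by MIR3175 and MIR4665 (282 bp each). Width is no measure of binding strength, and it depends on fragment length and depth, which the lists do not give. Median GC content was 58.2% and 58.3%.

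Typical enhancers bound by N-Myc overlapped 54 of the 75 promoters (72.0%, exact 95% interval 60.4% to 81.8%), and 80.5% of the other listed promoters. Super-enhancers bound by N-Myc, long clusters of H3K27 acetylation, overlapped 4 (5.33%, interval 1.47% to 13.1%), against 2.18% of the other promoters. These were MIR3175 in an intron of CHD2, MIR6132 in ST7, MIRLET7BHG in a region of 53.6 kb, and MIR4521 in a region of 85.1 kb near TMEM107 and AURKB. The region around MIR4521 was also in the JMJD6 super-enhancer list, although no common JMJD6 peak lay in the MIR4521 window. MIR4442, MIR4738 and MIR4754 lay in typical enhancers of the JMJD6 list.

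Most annotated microRNA genes had no N-Myc peak near them. Of 3049 genes that GENCODE calls microRNAs, 64 had a common N-Myc peak within 1 kb of the 5′ end (2.1%, exact 95% interval 1.62% to 2.67%), compared with 7.96% of the 61437 other annotated genes (4890 genes). For JMJD6 the counts were 5 microRNA genes (0.164%) and 247 other genes (0.402%). Of 1325 such genes with a MIR symbol, 43 had an N-Myc peak within 1 kb, and 38 of these were in the list used here. The other 5 were MIR141, MIR3153, MIR33B, MIR3676 and MIR4716. GENCODE named only 40 of the 68 hairpin symbols in the N-Myc list, so these shares come from a different gene table than the list. Just inside 1 kb were MIR141 (972 bp from the peak's edge), MIR5187 (949 bp) and MIR33B (944 bp). Just outside were MIR4655 (1183 bp), MIR3143 (1205 bp) and MIR3186 (1269 bp).

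Of 26 genes that make or control microRNAs, 10 were in the N-Myc list and none was in the JMJD6 list. Over all 20176 protein-coding genes of the annotation, 16.5% had a common N-Myc peak within 1 kb of the 5′ end. The measures differ, because a gene was in the list through any listed start, and AGO1 was listed without a common peak. The count and the share are therefore not directly comparable. The nuclear cutting enzyme genes DROSHA and DGCR8, and DICER1, were not in the list used here. XPO5, which exports the hairpin, had peaks of 355 and 211 bp with 1 CACGTG between them. LIN28B, an inhibitor of let-7 processing, had peaks of 612 and 1120 bp with 1 CACGTG. DIS3L2, the exonuclease that degrades tailed let-7 precursors, had a peak of 430 bp with 1 CACGTG. LIN28A, ZCCHC11 and ZCCHC6, also among the 26 genes, were not in the list used here. The processing cofactors DDX5, DDX17, HNRNPA1, KHSRP and SRRT were listed, and HNRNPA1 and KHSRP had 3 CACGTG each. The RNA editor ADAR had peaks of 215 and 462 bp. AGO1 was listed, but the nearest common peak was 163680 bp from the listed start, and AGO2, AGO3 and AGO4 were not listed.

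As a check of the cell type, marker genes of noradrenergic neuroblastoma were looked up. The promoters of HAND2 and GATA3 were not in the lists used here, whereas both genes were named among the nearest genes of N-Myc-bound super-enhancers. Binding lists hold no expression values, so the identity of the cells rests on the labels.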

How the data were processed

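ChIP-Seq peaks were called by the authors. Reads, per the submitters' processing notes and the study's methods, were aligned to hg19 with BWA, handled with SAMtools and BEDTools, and peaks were called against input with MACS2 2.1.1.20160309. Promoters were windows of 1 kb on each side of RefSeq start sites. The 12 deposited lists give positions in bp (chromosome, start and end) of peaks common to 3 replicates and of bound promoters, typical enhancers and super-enhancers. No list gives a score or a column per sample, so depth is unknown.

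The members and gene lists were chosen with earlier results of these data known. Overlap meant at least 1 bp. Members were compared by counts with exact Clopper-Pearson 95% intervals, which cover counting error only, and no test was run. Motifs and 75-base words were read from GRCh37, start sites from GENCODE version 44 lifted to that build, and hairpins were placed by exact sequence match of the RefSeq hairpins. A gene was named if it was a JMJD6-listed member, in a looked-up family, among the 5 widest or narrowest peaks, over 1 kb from every other start, without a peak, sharing a peak or a seed, or had at least 3 CACGTG. Members at coding genes and the unlisted genes near 1 kb were further chosen after their values were seen. Some genes covered by the lists are not reported here. Overlap and motif functions were tested on simulated data. Python 3.11.15, SciPy 1.17.1 and pysam 0.24.0 were used.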

Additional observations from a re-analysis of the deposited data

How the results depend on the processing

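With positions alone, no stricter threshold could be applied, and no replicate could be compared or removed. No paired analysis was possible because the lists pool the replicates and no result comes from a test. The counts of members stayed within 1.5 times under the alternatives run: 66 to 75 for N-Myc and 3 for JMJD6. The share of member peaks with CACGTG moved from 42.5% to 19.2% when only 100 bp on each side of the midpoint were read, and to 58.9% when CACGCG also counted. It was 48.9% in the wider peaks, which hold more bases, and 39.7% away from assembly gaps. The share of hairpin peaks within 1 kb of another start moved from 82.1% to 67.2% with protein-coding genes alone. Hairpins within a gene in sense moved from 72.5% to 53.6% with protein-coding genes alone. Annotated microRNA genes with an N-Myc peak moved from 2.1% to 1.38% at 500 bp. The direction of these moves follows from the alternatives' construction, with fewer bases or genes counted or, for CACGCG, a motif added. Their size does not, and whether CACGTG lay towards the middle of the peaks was not tested. The median distance of members from the listed start went from 506.5 bp at the midpoint to 184 bp at the nearest edge of the peak, within the spread among members. The other alternatives stayed within 1.5 times, or within the interval or spread, of the values reported.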
